A study of Mus musculus with 9 samples.

Results

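Midbrain dopamine neurons are not one population, and 9 genes that separate their subtypes were followed here through the substantia nigra pars compacta of mice given the neurotoxin MPTP. The genes were taken by symbol: Sox6, Aldh1a1, Ndnf and Anxa1 mark neurons of the ventral tier of the substantia nigra, which are known to be vulnerable, and Calb1, Otx2, Cck, Grp and Vip mark dorsal nigral or ventral tegmental neurons, which are known to be spared more often. All 9 were present among the 27339 genes of the deposited table, each on 1 line, and all 9 passed the level filter and stood among the 14949 genes tested.

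The 9 libraries of bulk RNA sequencing fell into 3 groups of 3. The group MPTP_MCTKD was given MPTP and fed a ketogenic diet based on medium-chain triglycerides, the group MPTP received the toxin, and the group Ctrl was the control. The sources used here do not give strain, sex, age, toxin dose, schedule or what the controls received, and animals on the diet without MPTP were not analysed here. The labels do not say whether the libraries of a group came from separate animals, so every p-value measures the spread between libraries, which may be technical in part. The study's title asks whether the diet protects against the toxin, and the comparisons below are MPTP against Ctrl, MPTP_MCTKD against MPTP, and MPTP_MCTKD against Ctrl. MPTP against Ctrl and MPTP_MCTKD against Ctrl share the Ctrl libraries, and MPTP against Ctrl and MPTP_MCTKD against MPTP share the MPTP libraries. MPTP_MCTKD against MPTP and MPTP_MCTKD against Ctrl share the MPTP_MCTKD libraries.

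In the brain MPTP is oxidised to a cation, which the dopamine transporter carries into dopamine neurons and which inhibits complex I of the respiratory chain. In mice and in Parkinson's disease the ventral nigral neurons that express Sox6 and Aldh1a1 are lost before the calbindin-positive neurons of the dorsal tier and the ventral tegmental area. None of the markers belongs to dopamine neurons alone: in a tissue punch each is also made by other cells, such as thalamic neurons for Cck or choroid plexus and pineal cells for Otx2, so their levels are set beside lists of genes for those cells. In bulk tissue fewer cells of a type and less RNA per cell cannot be told apart.

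For orientation the markers are placed on the mouse genome build GRCm38 with GENCODE M21 annotation, where all 9 are protein-coding genes. Aldh1a1 lies at chr19:20492715-20643465 on the plus strand and Anxa1 at chr19:20373428-20390944 on the minus strand, so that these 2 ventral markers are neighbours within 270038 bases. Aldh1a7, a close relative of Aldh1a1, follows at chr19:20692953-20727562. Sox6 spans chr7:115470872-116038796, Ndnf chr6:65671590-65712326, Calb1 chr4:15881264-15908064, Otx2 chr14:48657677-48673819, Cck chr9:121489824-121495694 and Vip chr10:5639218-5647617. Exons of Otx2 share 154 bases with the antisense lincRNA Otx2os1 and 168 bases with the transcript Gm49154 of the same strand; no source used here states whether counting used the strand, so reads over these stretches cannot be assigned. No exonic base of the other 8 markers was shared with another annotated gene.

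The sequence before the transcription start is printed for 3 markers that carry the account below: Aldh1a1, the ventral marker with the highest level, Cck, which followed a list of thalamic genes, and Vip, whose level varied most. The sequences are from RefSeq on GRCm38.p6, each 250 bases ending just before the start, 5′ to 3′ on the gene's own strand. Capitals mark matches on either strand to the TATA box core TATAAA, the CAAT box core CCAAT or the cyclic AMP response core TGACGT, 3 motifs that do not overlap one another here. The windows are chr19:20492333-20492582 for Aldh1a1 (plus strand), chr9:121495695-121495944 for Cck (minus strand) and chr10:5638968-5639217 for Vip (plus strand).
Aldh1a1: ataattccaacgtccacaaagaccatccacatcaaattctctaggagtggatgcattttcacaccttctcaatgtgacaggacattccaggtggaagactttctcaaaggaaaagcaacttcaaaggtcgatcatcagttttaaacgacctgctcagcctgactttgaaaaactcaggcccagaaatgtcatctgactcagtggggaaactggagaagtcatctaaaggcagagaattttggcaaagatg
Cck: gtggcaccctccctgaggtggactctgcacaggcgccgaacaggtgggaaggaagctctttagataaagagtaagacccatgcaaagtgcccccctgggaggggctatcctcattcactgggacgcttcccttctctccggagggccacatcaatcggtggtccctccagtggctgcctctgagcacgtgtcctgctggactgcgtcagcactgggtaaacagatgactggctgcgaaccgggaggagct
Vip: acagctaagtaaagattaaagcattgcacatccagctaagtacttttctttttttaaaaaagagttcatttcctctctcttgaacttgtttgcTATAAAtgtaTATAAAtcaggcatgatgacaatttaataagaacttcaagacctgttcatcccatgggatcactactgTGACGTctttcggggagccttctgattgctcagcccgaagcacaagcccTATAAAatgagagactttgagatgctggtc
In Vip, TATAAA occurred 3 times, the nearest starting 30 bases before the start, and TGACGT occurred once, starting 79 bases before it. The Cck window and the printed Aldh1a1 window held none of these letters. RefSeq gives Aldh1a1 2 starts; the printed window belongs to the upstream one, which lies before the GENCODE start given above, and the window of the other, chr19:20601718-20601967, held CCAAT once, starting 72 bases before that start. Among 32817 windows of the same length, 12.4% held TATAAA, 33.8% CCAAT and 6.46% TGACGT. Windows were found for 6 of the 9 markers, all but Ndnf, Calb1 and Grp, and Sox6 and Otx2 also had more than 1 start.

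Library totals lay between 33187343 and 40001344 counts. The tissue label was checked with 19 genes shared by midbrain dopamine neurons, all of which were expressed: Th, the rate-limiting enzyme of dopamine synthesis, averaged 31.8 FPKM in MPTP_MCTKD, 32.6 FPKM in MPTP and 45.1 FPKM in Ctrl (FPKM, fragments per kilobase of transcript and per unit of library depth, is the authors' value and allows genes to be compared per length). Neighbouring tissue was present too. The library Ctrl 3 held 1250 CPM (counts scaled to the library total) of 9 choroid plexus genes, against 19.9 to 96.3 CPM elsewhere, and 67.9 CPM of 5 pineal genes, against at most 3.56 CPM elsewhere. MPTP 1 had the highest summed level of 9 thalamic genes, 1551 CPM, and the lowest of the Edinger-Westphal peptide genes Ucn and Cartpt, 17.5 CPM against 47.6 to 111 CPM elsewhere. The raphe serotonin neuron genes Tph2, Slc6a4, Htr5b and Fev summed to 24.03 CPM in MPTP 1 and 26.55 CPM in MPTP_MCTKD 1. Elsewhere they ran from 45.3 CPM in Ctrl 1 to 174 CPM in MPTP_MCTKD 2.

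The markers differed widely in level, and their order was the same in each group. By mean FPKM the order was Aldh1a1, Cck, Calb1, Otx2, Grp, Sox6, Vip, Ndnf and Anxa1. Aldh1a1 averaged 130.2 ± 10.6 FPKM in MPTP_MCTKD, 125 ± 7.25 FPKM in MPTP and 132 ± 11.2 FPKM in Ctrl (SD, n = 3 each). Anxa1, at the other end, averaged 1.42 ± 0.379 FPKM in MPTP_MCTKD, 1.34 ± 0.496 FPKM in MPTP and 1.83 ± 0.469 FPKM in Ctrl (SD, n = 3 each). The top 3 were separated in every group: the ranges over libraries of Aldh1a1, Cck and Calb1 did not overlap, and Calb1 stood clear of Otx2. Below them neighbours mostly could not be ordered, since the ranges of Otx2 and Grp overlapped in MPTP_MCTKD and MPTP, and those of Grp, Sox6 and Vip overlapped in every group. Vip and Ndnf were separated only in MPTP_MCTKD, as were Ndnf and Anxa1.

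**Figure D1:**
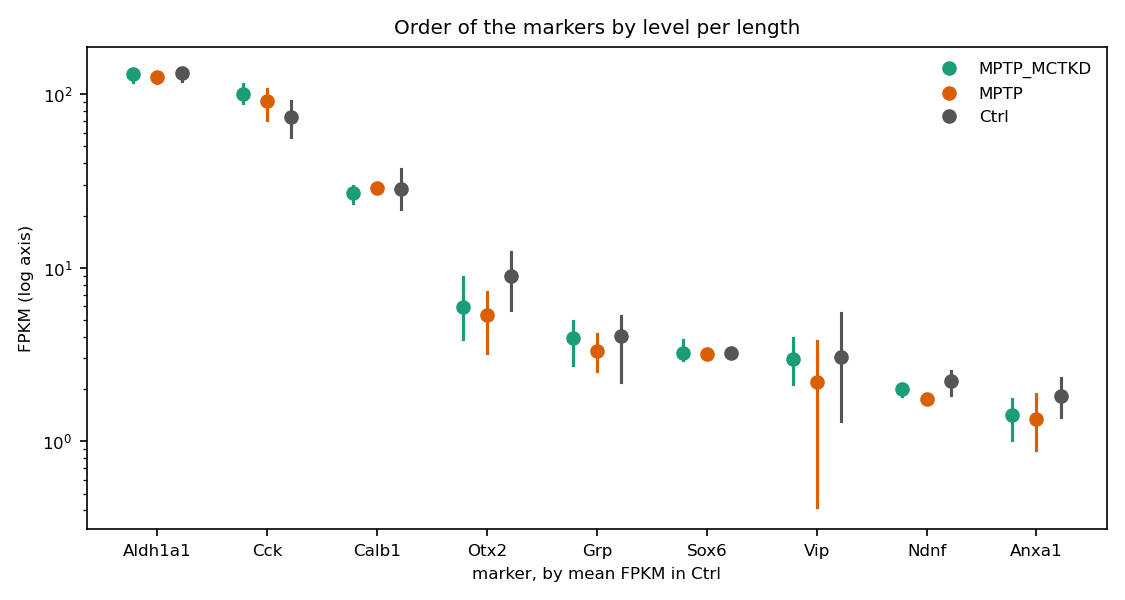
Levels per length of the 9 markers, as FPKM on a logarithmic axis; each point is the mean of 3 libraries and each line runs from the lowest to the highest library, with MPTP_MCTKD, MPTP and Ctrl side by side. Aldh1a1, Cck and Calb1 stand apart at the top, and the lower 6 lie within 0.417 to 12.4 FPKM.

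Aldh1a1 was more abundant per length than the general dopamine genes in every library. Its FPKM was 3.42, 4.44 and 4.78 times that of Th in MPTP_MCTKD, 4.58, 3.89 and 3.22 times in MPTP, and 2.50, 3.21 and 3.29 times in Ctrl. The MPTP_MCTKD values lay above every Ctrl value, while MPTP 3 lay within the Ctrl range. Relative to Slc6a3, the dopamine transporter through which the toxin enters, its FPKM was 3.52, 5.09 and 5.03 times as high in MPTP_MCTKD, 3.78, 4.05 and 4.45 times in MPTP, and 2.81, 3.20 and 3.31 times in Ctrl. Here both MPTP groups lay above all Ctrl libraries. The same held for the ratios of Cck and Calb1 to Slc6a3, so it was not particular to Aldh1a1. Slc6a3 itself was lower in every library of the group MPTP than in every Ctrl library, as were 5.41% of all genes by CPM. In MPTP_MCTKD it overlapped Ctrl, with 23.4 to 38.9 FPKM against 36.1 to 49.8 FPKM. The share of all genes whose ratio to Slc6a3 separates in this way was not counted. Calb1, the calcium buffer calbindin, reached 0.739 to 0.950 times the FPKM of Th in MPTP_MCTKD, 0.817 to 1.04 times in MPTP and 0.509 to 0.728 times in Ctrl. These ratios were not tested.

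None of the 9 markers passed the test in MPTP against Ctrl. Counts were fitted with edgeR's quasi-likelihood test over all genes with Benjamini-Hochberg adjustment, and 0 of 9 markers had an adjusted p under 0.05, against 2 of all 14949 genes (0.0134%). The smallest adjusted p among the markers was 0.893. DESeq2 and limma on log2 FPKM also called 0 of the 9. At an unadjusted p under 0.05, 1 marker was lower in MPTP and 0 were higher, beside 2.69% and 2.68% of all genes. The 3 libraries of each group did not overlap for 1 marker, lower in MPTP, beside 5.41% of all genes lower and 5.14% higher. That 1 marker was Ndnf in both counts. The fitted log2 fold change was below 0 for 7 of 9 markers, with a median of -0.22 for the 4 vulnerable markers and -0.30 for the 5 resistant ones; the median of all tested genes was -0.0009, and 50.4% of them were below 0.

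Among the vulnerable markers, Sox6, a transcription factor that sets ventral nigral identity in the mouse, was the steadiest of the 9. Sox6 stood at 27.1, 25.2 and 30.1 CPM in MPTP_MCTKD, 27.2, 27.2 and 26.0 CPM in MPTP, and 25.2, 29.3 and 27.4 CPM in Ctrl. All 3 groups overlapped and the highest library was 1.19 times the lowest. The log2 fold change was -0.02 ± 0.0865 (SE) in MPTP against Ctrl, with a 95% interval of -0.21 to 0.16. Without Ctrl 2 it was 0.03.

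Aldh1a1 encodes a cytosolic aldehyde dehydrogenase that makes retinoic acid and oxidises the aldehyde product of dopamine. It stood at 254, 245 and 213 CPM in MPTP_MCTKD, 240.5, 237 and 203 CPM in MPTP, and 261, 251 and 215 CPM in Ctrl. The groups overlapped, and in each of them the library numbered 3 was the lowest. Its log2 fold change in MPTP against Ctrl was -0.09 ± 0.0921 (SE), with a 95% interval of -0.30 to 0.11 (edgeR adjusted p = 0.954). Over the same libraries the log2 fold change was -0.48 for Th and -0.49 for Slc6a3 (SE 0.225 and 0.231), and neither passed (edgeR adjusted p = 0.913 for both).

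Ndnf, which encodes a secreted neurotrophic factor, was the marker with the smallest p. It stood at 22.9, 19.5 and 22.3 CPM in MPTP_MCTKD, 18.9, 17.6 and 19.1 CPM in MPTP, and 27.1, 24.3 and 19.4 CPM in Ctrl. Every MPTP library lay below every Ctrl library, though MPTP 3 and Ctrl 3 were close. The log2 fold change was -0.35 ± 0.116 (SE), with a 95% interval of -0.60 to -0.10, an edgeR quasi-likelihood p of 0.00981 and an adjusted p of 0.893 over all genes. Across 22 alternatives, among them the removal of each library, the log2 value lay between -0.49 and -0.22 and the adjusted p never went below 0.543. It was -0.22 with limma on log2(FPKM + 1), which understates changes of low genes, and -0.23 without Ctrl 1.

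Anxa1, the phospholipid-binding annexin A1, rested on few reads, 57 to 164 counts a library. It stood at 1.82, 3.14 and 2.68 CPM in MPTP_MCTKD, 1.61, 2.20 and 3.23 CPM in MPTP, and 4.10, 2.47 and 3.10 CPM in Ctrl. The groups overlapped, with the library Ctrl 1 highest and MPTP 1 lowest. The log2 fold change in MPTP against Ctrl was -0.45 ± 0.311 (SE, 95% interval -1.12 to 0.22). It was -0.24 without Ctrl 1, -0.24 without MPTP 1 and -0.75 without MPTP 3.

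**Figure D2:**
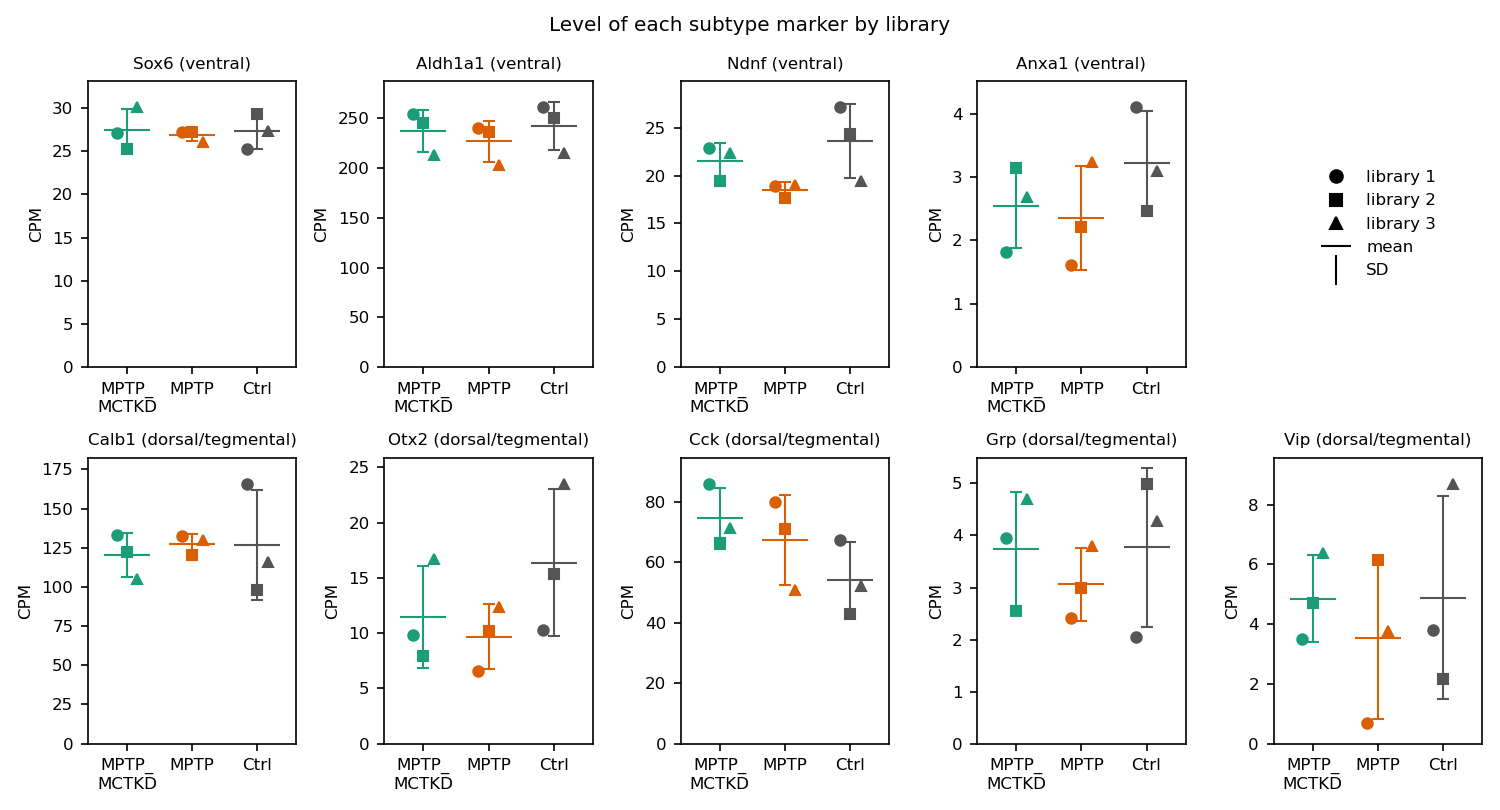
CPM of each marker in every library, with MPTP_MCTKD left, MPTP in the middle and Ctrl right; symbols give the library number, horizontal bars the mean and vertical bars the SD of 3 libraries. Ndnf is the marker whose MPTP libraries all lie below the Ctrl libraries, and Vip spreads from 0.708 to 8.69 CPM.

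Of the resistant markers, Calb1 had the log2 fold change closest to 0 in MPTP against Ctrl. It stood at 133, 123 and 105 CPM in MPTP_MCTKD, 133, 120.4 and 129.7 CPM in MPTP, and 166, 98.4 and 116 CPM in Ctrl. The Ctrl libraries held both the highest and the lowest value. The log2 fold change in MPTP against Ctrl was 0.01 ± 0.190 (SE), with a 95% interval of -0.44 to 0.46. It was -0.14 without Ctrl 2, -0.05 without Ctrl 3 and -0.02 without MPTP 1.

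Otx2, a homeobox factor of ventral tegmental neurons, had the largest log2 fold change of the 9, -0.76 ± 0.411 (SE) in MPTP against Ctrl, and did not pass (95% interval -1.73 to 0.22, edgeR adjusted p = 0.918). It stood at 9.86, 7.90 and 16.7 CPM in MPTP_MCTKD, 6.54, 10.1 and 12.3 CPM in MPTP, and 10.3, 15.3 and 23.5 CPM in Ctrl. The groups overlapped, and the highest library was Ctrl 3, the one rich in choroid plexus and pineal genes, which also express Otx2. Without Ctrl 3 the log2 fold change was -0.40, and without Ctrl 3 and MPTP 1 -0.19. A fit with the choroid plexus score as covariate gave -0.48, and with the replicate number as a block -0.72 (edgeR adjusted p = 0.401).

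Cck, the neuropeptide cholecystokinin, was the marker with the highest fold change in MPTP against Ctrl, 0.31 ± 0.226 (SE, log2; 95% interval -0.22 to 0.85, edgeR adjusted p = 0.934). It stood at 85.9, 66.2 and 71.4 CPM in MPTP_MCTKD, 79.9, 71.0 and 50.9 CPM in MPTP, and 67.5, 42.8 and 52.0 CPM in Ctrl. The groups overlapped. With the thalamic score as a covariate, an alternative chosen after the data were seen, its log2 fold change was -0.0026.

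The other 2 peptides were scarce and variable. Grp, gastrin-releasing peptide, stood at 3.95, 2.54 and 4.70 CPM in MPTP_MCTKD, 2.41, 2.99 and 3.80 CPM in MPTP, and 2.05, 4.99 and 4.27 CPM in Ctrl. The Ctrl range held every MPTP value, and the log2 fold change was -0.30 ± 0.331 (SE, 95% interval -1.01 to 0.42). Vip, vasoactive intestinal peptide, stood at 3.49, 4.70 and 6.38 CPM in MPTP_MCTKD, 0.708, 6.13 and 3.77 CPM in MPTP, and 3.80, 2.16 and 8.69 CPM in Ctrl. MPTP 1, with 25 counts, was lowest and Ctrl 3, with 303 counts, highest. The log2 fold change of Vip was -0.46 ± 0.784 (SE, 95% interval -2.33 to 1.40); it was 0.24 without Ctrl 3 and 0.02 without MPTP 1.

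The shared dopamine genes give the scale for these values. All 19 had a log2 fold change below 0 in MPTP against Ctrl, with a median of -0.39 and a range of -1.22 to -0.13. Of these, 6 had an unadjusted p under 0.05 and 0 an adjusted one. Ddc, the decarboxylase that completes dopamine synthesis, had -0.39 (SE 0.159, edgeR adjusted p = 0.904), and the delta-like protein Dlk1 had -0.13 (SE 0.199, adjusted p = 0.971). The mean log2 level of the 19 genes relative to Ctrl was -0.26, -0.31 and -0.51 for MPTP_MCTKD, -0.67, -0.18 and -0.37 for MPTP, and 0.07, -0.09 and 0.02 for Ctrl. MPTP 1 was lowest, and every library of both MPTP groups lay below every Ctrl library. Genes of glia lay mostly above 0 in the same comparison: 7 of 7 oligodendrocyte genes (median 0.18), 7 of 8 microglial genes (median 0.10) and 6 of 7 astrocyte genes (median 0.06). In MPTP_MCTKD against Ctrl it was 7 of 7 oligodendrocyte genes (median 0.25), 7 of 8 microglial genes (median 0.17) and 5 of 7 astrocyte genes (median 0.12). At an unadjusted p under 0.05, 6 oligodendrocyte, 3 microglial and 4 astrocyte genes were higher, beside 3.36% of all genes. The oligodendrocyte genes summed to 12803 to 14093 CPM in MPTP_MCTKD, 10613 to 13031 CPM in MPTP and 10034 to 12230 CPM in Ctrl. None of these glial genes passed the adjusted threshold, and their part in the values of the dopamine genes and markers was not tested.

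Set against this dopamine score, several markers stood higher in the MPTP groups than in Ctrl. The difference of the log2 level of Aldh1a1 from the score, with the Ctrl mean at 0, was 0.33, 0.33 and 0.33 in MPTP_MCTKD, 0.66, 0.15 and 0.12 in MPTP, and 0.04, 0.14 and -0.18 in Ctrl. The MPTP_MCTKD libraries lay above all Ctrl libraries, and MPTP 3 lay within the Ctrl range. For Cck the difference was 0.95, 0.62 and 0.93 in MPTP_MCTKD, 1.25, 0.60 and 0.30 in MPTP, and 0.27, -0.22 and -0.05 in Ctrl, with all libraries of both MPTP groups above all Ctrl libraries. The subtracted score was itself lower in all those libraries than in every Ctrl library, whereas the CPM of Cck overlapped between groups. The share of all genes that separate in this way was not counted. The mean difference was 0.37 in MPTP_MCTKD and 0.38 in MPTP for Sox6, and 0.31 in MPTP_MCTKD and 0.45 in MPTP for Calb1. For Ndnf it was 0.24 in MPTP_MCTKD and 0.07 in MPTP, for Anxa1 0.02 in MPTP_MCTKD and -0.07 in MPTP, and for Otx2 -0.15 in MPTP_MCTKD and -0.32 in MPTP. For Grp it was 0.39 in MPTP_MCTKD and 0.18 in MPTP, and for Vip 0.54 in MPTP_MCTKD and -0.28 in MPTP, of opposite sign in the 2 groups. Within the vulnerable group the means of Ndnf and Anxa1 stayed within 0.24 of the score, and those of Sox6 and Aldh1a1 lay 0.31 to 0.38 above it. Their libraries overlapped, however. Anxa1 ran from -0.52 in MPTP_MCTKD 1 to 0.40 in MPTP 3, and Ndnf reached 0.44 in MPTP_MCTKD 3. Sox6 went down to 0.18 in MPTP 2 and Aldh1a1 to 0.12 in MPTP 3. The score enters every difference, and these differences were not tested.

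**Figure D3:**
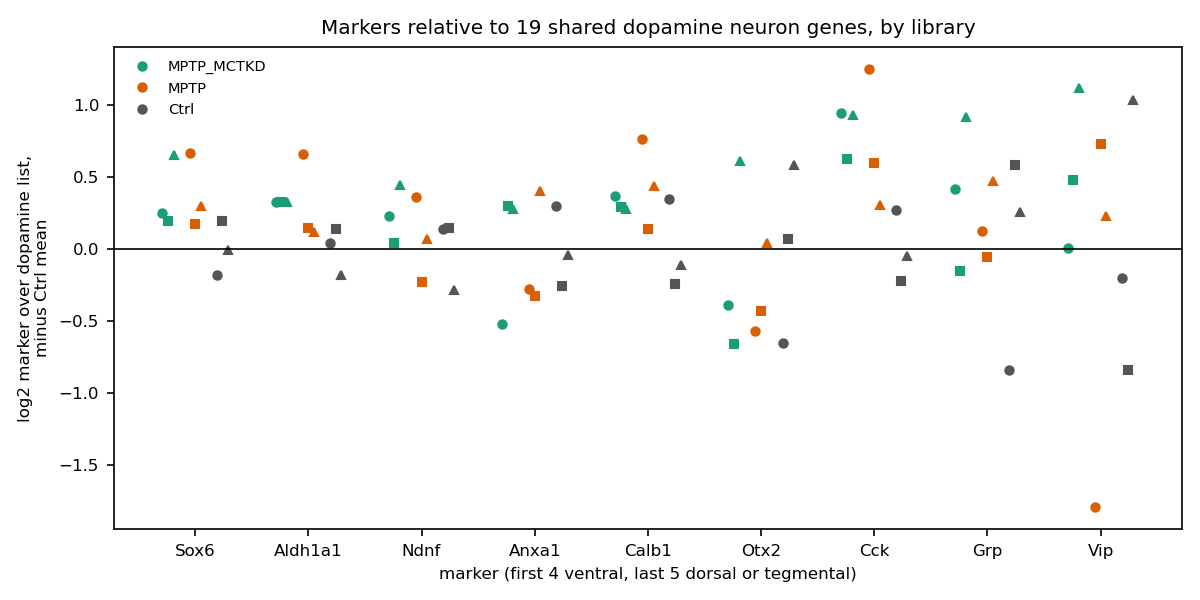
Log2 level of each marker minus the mean log2 level of 19 shared dopamine neuron genes, with the mean of the Ctrl libraries set to 0; every point is a library, with MPTP_MCTKD left, MPTP in the middle and Ctrl right for each marker. Cck lies above its Ctrl libraries in all 6 other libraries, in which the subtracted mean is itself below Ctrl. Vip runs from -1.80 in MPTP 1 to 1.12 in MPTP_MCTKD 3.

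In MPTP_MCTKD against MPTP, 0 of 9 markers had an adjusted p under 0.05 by edgeR's quasi-likelihood test, as had 0 of all genes (0%). DESeq2 and limma called 0 of the 9. At an unadjusted p under 0.05, 0 markers were lower and 0 higher, beside 4.02% and 3.76% of all genes. The groups did not overlap for 1 marker, which was higher in MPTP_MCTKD, beside 7.1% of all genes lower and 6.64% higher. The log2 fold change was above 0 for 8 of the 9, all but Calb1, with a median of 0.09 for the vulnerable and 0.25 for the resistant markers; the median of all genes was 0.0006.

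The marker that did not overlap was again Ndnf, with all MPTP_MCTKD libraries above all MPTP libraries. Its log2 fold change was 0.22 ± 0.117 (SE, 95% interval -0.03 to 0.47, edgeR adjusted p = 0.676), and its MPTP_MCTKD libraries overlapped those of Ctrl. Vip had 0.46 ± 0.785 (SE), and -0.02 without MPTP 1. Grp had 0.28 ± 0.332 and Otx2 0.25 ± 0.415 (SE, log2), and Otx2 had -0.12 without MPTP_MCTKD 3. Anxa1 had 0.11 ± 0.314 (SE), and -0.10 without MPTP 1. Cck had 0.15, Sox6 0.03 and Calb1 -0.08 (log2). Aldh1a1 had 0.07 ± 0.0922 (SE). By library number, each MPTP_MCTKD value of Aldh1a1 lay above the MPTP value and below the Ctrl value of the same number. The labels do not say that libraries of the same number belong together, and the share of all genes ordered in this way was not counted. With the replicate number as a block the value of Aldh1a1 was 0.07 ± 0.0436 (SE, edgeR adjusted p = 0.724). The 19 dopamine genes divided into 10 below and 9 above 0, with a median of -0.0061.

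In MPTP_MCTKD against Ctrl, again 0 of 9 markers had an adjusted p under 0.05, as had 0 of all genes (0%), and DESeq2 and limma called 0 of the 9. At an unadjusted p under 0.05, 0 markers were lower and 0 higher, beside 3.36% of all genes lower and 3.36% higher. The groups overlapped for all 9 markers, beside 6.4% of all genes that did not overlap and were lower and 6.28% that were higher. The median was -0.08 for the vulnerable and -0.01 for the resistant markers, with -0.0015 for all genes.

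The largest values in this comparison were those of Otx2 and Cck. Otx2 was at -0.51 ± 0.409 (log2 fold change ± SE, edgeR adjusted p = 0.870), and -0.16 without Ctrl 3. Cck had 0.46 ± 0.225 (SE, 95% interval -0.07 to 0.997, edgeR adjusted p = 0.776), and 0.17 with the thalamic score as a covariate. Anxa1 had -0.34 ± 0.310 and Ndnf -0.13 ± 0.116 (SE, log2). Sox6, Aldh1a1, Calb1, Grp and Vip lay between -0.07 and 0.01. The 19 dopamine genes were all below 0, with a median of -0.33.

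**Figure D4:**
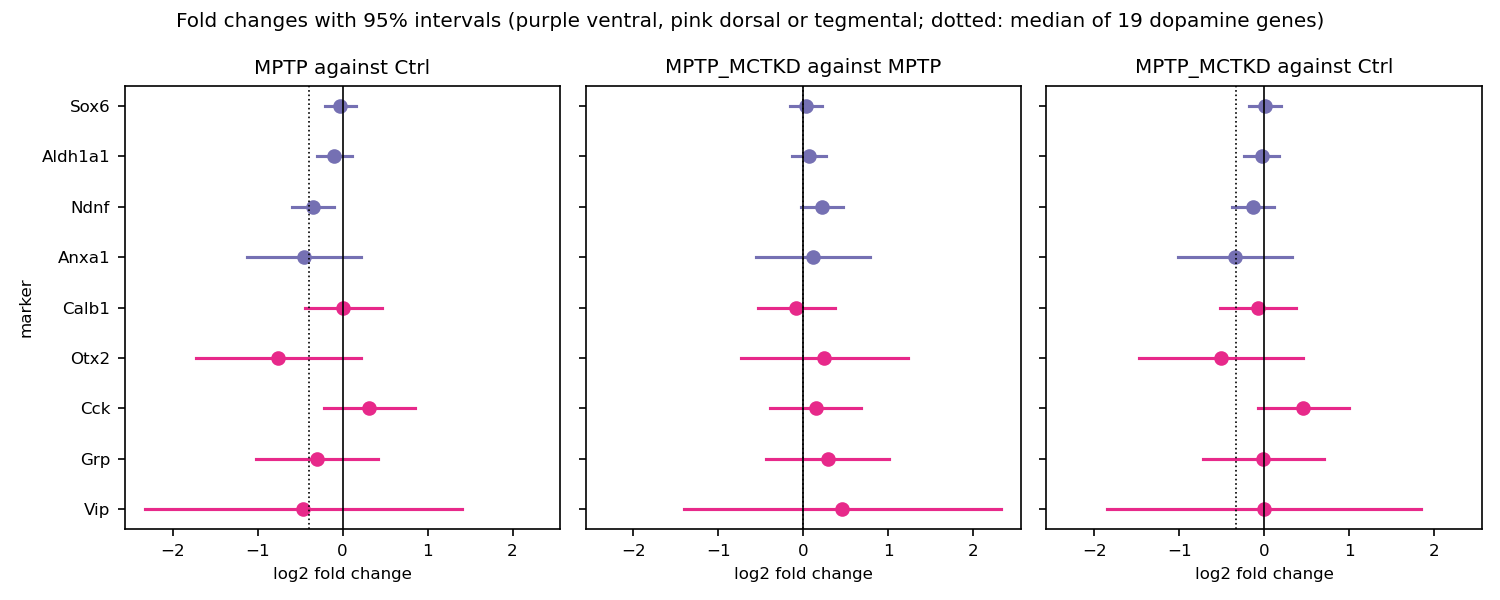
Log2 fold changes of the 9 markers with 95% intervals from edgeR in the 3 comparisons, vulnerable markers in purple and resistant ones in pink; the dotted line is the median of 19 shared dopamine genes. The interval of Ndnf in MPTP against Ctrl, -0.60 to -0.10, is the one that does not include 0, and the interval of Vip is the widest.

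The markers differed in how much they varied between libraries of 1 group, and the 3 steadiest were ventral ones. The biological coefficient of variation, edgeR's estimate of the relative spread between libraries of a group, was 0.646 for Vip, 0.344 for Otx2, 0.294 for Grp, 0.190 for Cck and 0.162 for Calb1. It was 0.275 for Anxa1, 0.109 for Ndnf, 0.0870 for Aldh1a1 and 0.0848 for Sox6. Vip exceeded 99.1% of all tested genes in this measure, Otx2 96.0%, Grp 92.7% and Anxa1 90.8%. From lowest to highest library the CPM differed 12.3-fold for Vip, 3.59-fold for Otx2, 2.54-fold for Anxa1, 2.44-fold for Grp, 2.01-fold for Cck and 1.68-fold for Calb1.

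Whether a marker moved with the genes of another cell type was examined in 25 relations across the 9 libraries, each with exact two-sided permutation tests adjusted over the 25. The permutations exchanged libraries across groups, and the lists were chosen with earlier results of these data known. Cck followed the thalamic list of Prkcd, Tcf7l2, Ramp3, Rgs16 and 5 others, with Pearson's r = 0.93 (exact permutation p = 0.000284, adjusted p = 0.00710) and Spearman's rho = 0.92 (adjusted p = 0.0328). Without MPTP 1 and MPTP_MCTKD 1, the libraries farthest from the median of the list, r was 0.96, and within groups it was 0.94. The thalamic score relative to Ctrl was 0.70, 0.18 and 0.20 in MPTP_MCTKD, 0.80, 0.36 and -0.03 in MPTP, and 0.28, -0.22 and -0.06 in Ctrl. All 9 thalamic genes had a log2 fold change above 0 in MPTP against Ctrl (median 0.40) and in MPTP_MCTKD against Ctrl (median 0.40). The summed thalamic level was 981 to 1405 CPM in MPTP_MCTKD, 880 to 1551 CPM in MPTP and 752 to 1133 CPM in Ctrl.

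**Figure D5:**
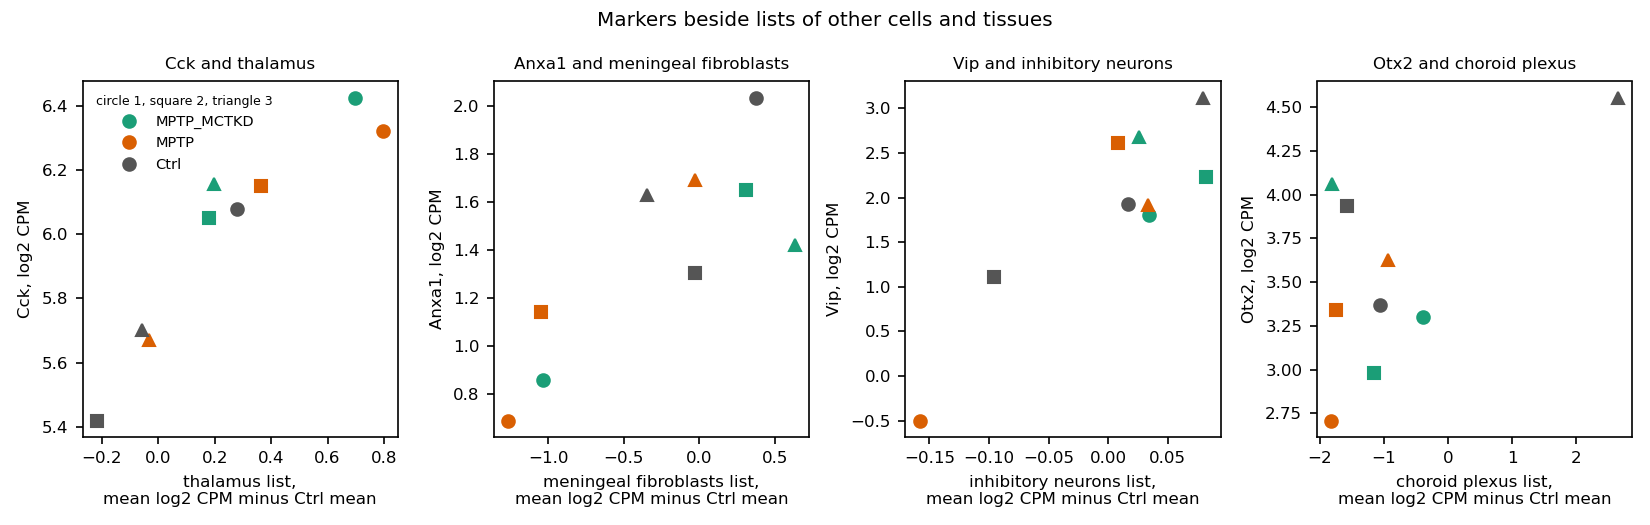
Log2 CPM of 4 markers against the mean log2 CPM of a gene list for another cell type or tissue, relative to the Ctrl mean; every point is a library, coloured by group and shaped by number. Cck rises along the thalamic list over all libraries (r = 0.93), whereas r of Vip is 0.33 without Ctrl 2 and MPTP 1, and r of Otx2 is -0.05 without Ctrl 3 and MPTP_MCTKD 1.

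The other relations had a smaller r. Anxa1 and 10 meningeal fibroblast genes had r = 0.81 (exact permutation p = 0.0100, adjusted p = 0.0835) and rho = 0.77 (adjusted p = 0.267), and r = 0.67 without MPTP 1 and MPTP 2. The meningeal genes were all below 0 in MPTP against Ctrl (median -0.57) and all above 0 in MPTP_MCTKD against MPTP (median 0.74), with summed levels of 114 to 326 CPM in MPTP_MCTKD, 91.7 to 199.96 CPM in MPTP and 190.0 to 279 CPM in Ctrl. With the meningeal score as a covariate the log2 fold change of Anxa1 was -0.07 in MPTP against Ctrl and -0.27 in MPTP_MCTKD against MPTP. Vip and 6 inhibitory neuron genes had r = 0.89 (exact permutation adjusted p = 0.0372) but rho = 0.53 (adjusted p = 0.575). Within groups r was 0.89. Without Ctrl 2 and MPTP 1, the libraries farthest from the median of the list, r was 0.33, so its size depended on those libraries. MPTP 1 was the lowest library both for Vip and for the raphe serotonin genes. The highest was Ctrl 3 for Vip and MPTP_MCTKD 2 for the raphe genes. The relation of Vip with the raphe genes was not tested.

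Otx2 had r = 0.60 with 8 choroid plexus genes (exact permutation adjusted p = 0.374, rho = 0.32) and r = 0.53 with the pineal genes Crx and Tph1 (adjusted p = 0.451, rho = 0.30). Without Ctrl 3 and MPTP_MCTKD 1 the first was -0.05, and without Ctrl 1 and Ctrl 3 the second was -0.07. Ttr, transthyretin, which choroid plexus cells secrete in bulk, was at 1064 CPM in Ctrl 3 and at most 69.4 CPM elsewhere, and Crx was at 15.4 CPM in Ctrl 3 and at 0 in MPTP_MCTKD 3 and MPTP 3. None of the 9 markers had a relation with the shared dopamine score that passed, with r from -0.44 for Cck to 0.58 for Anxa1 and adjusted p of 0.374 or more by exact permutation. Sox6, which oligodendrocyte precursors also express, had r = -0.07 with 8 of their genes (adjusted p = 0.978). What these lists of other cells contribute to the marker levels was not tested beyond the covariates given.

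Further genes of the same subtypes were tested as well. Of 8 more ventral nigral genes, 6 were below 0 in MPTP against Ctrl with a median of -0.09, 2 of them at an unadjusted p under 0.05 and 0 adjusted. Aldh1a7 had the largest value, -0.96 ± 0.379 (SE, log2, edgeR adjusted p = 0.893), and -0.84 ± 0.378 in MPTP_MCTKD against Ctrl (adjusted p = 0.740). It stood at 0.836, 1.05 and 1.97 CPM in MPTP_MCTKD, 1.05, 1.63 and 0.872 CPM in MPTP, and 2.85, 1.61 and 2.47 CPM in Ctrl, with overlap in both comparisons. Of the 50-base windows of its longest transcript, 7.49% also occurred in the longest transcript of its far more abundant neighbour Aldh1a1. Whether reads were exchanged between the 2 genes was not tested. Fgf1, Lmo3, Satb1 and Kcnj6, the most abundant of the list per length, had -0.09, -0.07, -0.09 and 0.0004 in MPTP against Ctrl (log2), and Fgf1 had 0.26 in MPTP_MCTKD against MPTP (adjusted p = 0.625).

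Of 9 more dorsal or tegmental genes, 7 were below 0 in MPTP against Ctrl, with a median of -0.11 and 0 at an unadjusted p under 0.05. The most abundant per length were Calb2, the calcium buffer calretinin, with a log2 fold change of -0.14 ± 0.0771 (SE), Slc17a6, the vesicular glutamate transporter of tegmental and thalamic neurons, with 0.06 ± 0.0621, the peptide Adcyap1 with -0.11 ± 0.147 and the neurokinin receptor Tacr3 with -0.01 ± 0.136. In MPTP_MCTKD against MPTP 6 of the 9 were above 0, with a median of 0.09 and 1, the lipase gene Lpl, at an unadjusted p under 0.05. In MPTP_MCTKD against Ctrl 4 were above and 5 below 0, with a median of -0.04. None passed the adjusted threshold in any comparison.

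Crym and Neurod6, named after their values were seen, had the largest log2 fold changes of these 9 genes in MPTP_MCTKD against MPTP, 1.93 ± 0.878 and 0.98 ± 0.482 (SE, edgeR adjusted p = 0.662 and 0.664). Against Ctrl Crym had 2.16 ± 0.881 (adjusted p = 0.740) and Neurod6 0.94 ± 0.480 (adjusted p = 0.772). Crym, which encodes a thyroid hormone-binding crystallin, stood at 1.47, 4.40 and 16.9 CPM in MPTP_MCTKD, 1.19, 1.90 and 2.87 CPM in MPTP, and 1.77, 0.884 and 2.44 CPM in Ctrl. Its high values were those of MPTP_MCTKD 2 and MPTP_MCTKD 3, and MPTP_MCTKD 1 lay within the range of the other groups. The same 2 libraries were highest for forebrain excitatory neuron genes, of which 3 of 7 were tested. Their mean log2 level relative to Ctrl was 0.19, 1.14 and 0.95 in MPTP_MCTKD, 0.04, -0.05 and 0.27 in MPTP, and -0.36, 0.40 and -0.04 in Ctrl. The list summed to 235 to 326 CPM in MPTP_MCTKD, 186 to 244 CPM in MPTP and 157 to 195 CPM in Ctrl, and its part in the values of Crym and Neurod6 was not tested.

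The receptors of the 3 peptides could be followed in part, since Vipr2, Cckbr and Cckar passed the level filter and Vipr1 and Grpr did not, so that Grp had no tested receptor. Vipr2, a receptor for vasoactive intestinal peptide, had a log2 fold change of 0.76 ± 0.206 (SE) in MPTP_MCTKD against Ctrl, with 14.7 ± 3.84 CPM in MPTP_MCTKD and 8.71 ± 0.888 CPM in Ctrl (SD, n = 3 each) and no overlap, and did not pass (edgeR adjusted p = 0.740). Cckbr, the main cholecystokinin receptor of the brain, had -0.12 ± 0.124 in MPTP against Ctrl, and Cckar had -0.41 ± 0.217 (SE, log2). Adcyap1r1, the receptor for the peptide of Adcyap1, had -0.15 ± 0.0546 in MPTP_MCTKD against Ctrl (edgeR adjusted p = 0.740).

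Genes of the retinoid pathway in which Aldh1a1 acts were mostly below Ctrl in MPTP: 12 of 14 tested, with a median of -0.28, 2 at an unadjusted p under 0.05 and 0 adjusted. In MPTP_MCTKD against MPTP 9 of the 14 were above 0, with a median of 0.07 and 1, which was higher, at an unadjusted p under 0.05. In MPTP_MCTKD against Ctrl 7 were below and 7 above 0, with a median of 0.03 and a lowest value of -1.96. Here 3 genes, all lower, had an unadjusted p under 0.05 and 0 an adjusted one. The mean log2 level of the retinoid genes relative to Ctrl was -0.36, -0.07 and -0.13 in MPTP_MCTKD, -0.66, -0.47 and -0.07 in MPTP, and 0.10, -0.09 and -0.01 in Ctrl. That of the 10 meningeal fibroblast genes was -1.04, 0.31 and 0.63 in MPTP_MCTKD, -1.26, -1.05 and -0.03 in MPTP, and 0.38, -0.03 and -0.34 in Ctrl. MPTP 1, MPTP 2 and MPTP_MCTKD 1 were the lowest libraries in both lists, and the part of meningeal RNA in the retinoid values was not tested. Among the most abundant per length, the retinoid X receptors Rxrb and Rxra had 0.07 and -0.02 in MPTP against Ctrl (log2), the retinal reductase Dhrs3 had 0.13, and Rxrg had -0.33, with -0.57 ± 0.186 (SE) in MPTP_MCTKD against Ctrl (edgeR adjusted p = 0.740). Of 14 tested relatives of the markers in their gene families, 8 were below 0 in MPTP against Ctrl, with a median of -0.02, and 0 had an unadjusted p under 0.05. Anxa5 and Anxa6, annexins of much higher level per length than Anxa1, had -0.04 and 0.06 (log2), and Pvalb, the calcium buffer parvalbumin, had 0.06.

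The genes whose log2 CPM followed each marker most closely over the 9 libraries were also listed. With Cck these were Ptpn4 (r = 0.98), Rora (0.97) and Nsmf (0.97), and with Sox6 they were Sipa1l3 (r = 0.97), Gad1 (0.96) and Asic4 (0.95). With Aldh1a1 they were Cdkn2d, Ptges3 and Gle1, with r of 0.90 to 0.91, and with Ndnf they were Sec61b (r = 0.96), Trp53i11 (0.91) and Tmem219 (0.91). With Anxa1 they were Svil, Efnb1 and Shc1, with Calb1 Lyrm1, Retreg1 and Gng2, with Otx2 Alas2, Pole4 and Gramd4, with Grp Aoc2, Moap1 and Zdhhc6, and with Vip Ddx6, Hyls1 and Tapt1, with r of 0.92 to 0.97. These are the highest of a very large number of correlations over 9 libraries and are given as a description. Gad1, which makes the transmitter of inhibitory neurons, is the one gene among them that was also in a list used above.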

How the data were processed

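Per the labels, total RNA of mouse substantia nigra pars compacta was extracted on columns and made into libraries with the NEBNext Ultra kit. The authors deposited 1 table with raw counts and FPKM for each gene and library, per the file headers. The build was GRCm38 (mm10), per the submitters' processing notes; the sources used here do not give aligner, counting tool or strand setting. Its 27339 genes comprised 22036 Ensembl and 5303 other identifiers; 10 lines without a gene name were dropped. Libraries were grouped by title. Genes averaging 0.5 FPKM or more were kept, and their counts were fitted with edgeR 4.0.16 (quasi-likelihood, robust, TMM factors 0.983 to 1.02) in R 4.3.3, all 9 libraries in 1 model, and adjusted by Benjamini-Hochberg over 14949 genes. CPM used the scaled library sizes. Alternatives used DESeq2 1.42.0 and limma 3.58.1, the second on log2(FPKM + 0.1 or 1) values computed from the deposited FPKM. The fits were tested on simulated data. The members, lists and tests were chosen with earlier results of these data known. Named genes were the 9 markers and, of each list described, up to 4 genes of highest mean FPKM. Th, Slc6a3, Ttr, Crx, Tph1, Aldh1a7 and Slc17a6 were always named, as were for each marker the 3 genes of highest r. Ucn and Cartpt form a list of 2. Outside this rule, Lpl, Crym and Neurod6 were named for their values, and Vipr1 and Grpr as receptors below the level filter. No 2 libraries of a group were alike within sampling noise (chi-square per degree of freedom 11.8 to 22.6). Same-numbered libraries of MPTP_MCTKD and MPTP correlated at 0.107 to 0.182 in their deviations from group means, above a minimum of 0.1 taken as a sign of pairing. For MPTP and Ctrl the values were -0.151 to 0.0472, and for MPTP_MCTKD and Ctrl -0.00730 to 0.0783. Libraries of different numbers were not compared, so these values cannot show whether libraries were paired. Count and FPKM implied transcript lengths that varied between libraries by 1.17 times for Sox6 and Otx2 and by at most 1.1 times for the other markers. Sequences are from RefSeq (GRCm38.p6).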

Additional observations from a re-analysis of the deposited data

How the results depend on the processing

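No marker was called under any of the 22 alternatives in any comparison. Over 594 recomputed log2 values of the markers, 55 had the other sign; none of these had passed a test, and the cause was not tested unless the alternative names it. The replicate block, which pairs libraries by number, called 3, 0 and 5 genes in MPTP against Ctrl, MPTP_MCTKD against MPTP and MPTP_MCTKD against Ctrl, and changed no marker's call.

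Genes called in MPTP against Ctrl numbered 2, but 14 with DESeq2, 0 with limma on log2(FPKM + 0.1) and 0 on log2(FPKM + 1), 0 without robust moderation, 0 with the choroid plexus score, 1 with the meningeal score and 0 with the thalamic score as a covariate, 1 with Ctrl 3 and MPTP 1 left out, and 0 to 4 with 1 library left out. In MPTP_MCTKD against MPTP they numbered 0, but 19 with DESeq2, 1 without Ctrl 3 and MPTP 1, 1 without MPTP 1 and MPTP_MCTKD 1, and 0 to 1 with 1 library left out. In MPTP_MCTKD against Ctrl they numbered 0, but 1 without a filter on low values, 14 with DESeq2, 5 with the replicate block, 4 with the compared groups alone, 1 without MPTP 1 and MPTP_MCTKD 1, and 0 to 4 with 1 library left out. The thalamic covariate and the removal of MPTP 1 with MPTP_MCTKD 1 were chosen after seeing the data.

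Log2 values that turned in MPTP against Ctrl were Vip at 0.21 with the choroid plexus score, Calb1 at -0.0789 and Vip at 0.73 without Ctrl 3 and MPTP 1, Calb1 at -0.13, Cck at -0.0026 and Grp at 0.0332 with the thalamic score, and Calb1 at -0.0187 and Vip at 0.0228 without MPTP 1 and MPTP_MCTKD 1. With 1 library left out Sox6 ranged from -0.0757 to 0.0291, Calb1 from -0.14 to 0.26 and Vip from -1.12 to 0.24. In MPTP_MCTKD against MPTP, Anxa1 was -0.27 with the meningeal score and -0.10 without Ctrl 3 and MPTP 1, and Vip was -0.0263 without the same libraries. With 1 library left out Anxa1 ranged from -0.0952 to 0.41, Vip from -0.0241 to 1.12, Aldh1a1 from -0.0072 to 0.14, Cck from -0.0188 to 0.29, Sox6 from -0.0365 to 0.0942, Calb1 from -0.16 to 0.0038 and Otx2 from -0.12 to 0.46. In MPTP_MCTKD against Ctrl, Sox6, Grp and Vip were -0.0077, 0.017 and 0.16 with limma on log2(FPKM + 0.1) and -0.0044, 0.0045 and 0.0847 on log2(FPKM + 1), and -0.0067, 0.041 and 0.61 with the choroid plexus score. Grp and Vip were 0.0328 and 0.0182 with the replicate block, 0.0863 and 0.70 without Ctrl 3 and MPTP 1, and 0.35 and 0.50 with the thalamic score. Vip was 0.0001 with the compared groups alone and 0.19 without MPTP 1 and MPTP_MCTKD 1. With 1 library left out Sox6 ranged from -0.0586 to 0.072, Aldh1a1 from -0.11 to 0.0447, Calb1 from -0.23 to 0.17, Grp from -0.31 to 0.24 and Vip from -0.36 to 0.71.

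Of the 25 relations, 24 kept their sign and their side of the threshold on log2(FPKM + 0.1), and that of Sox6 with oligodendrocyte precursors was 0.18. With 3 libraries a group, intervals of the log2 fold change spanned 0.37 units for Sox6 and 3.73 units for Vip in MPTP against Ctrl, widths that follow the spread between libraries. The lowest counts in a library were 25 for Vip and 57 for Anxa1, and what deeper sequencing would change was not tested.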
